A study of Mus musculus with 4 samples.

Results

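The annexins are a family of proteins that bind acidic phospholipids when calcium is present. The members studied here were 9 genes, *Anxa1* to *Anxa7*, *Anxa9* and *Anxa11*, picked by symbol from the 48526 mouse gene identifiers in the count tables. They were chosen with earlier results of these data known, and each of the 9 had a row. RNA-seq had been done in duplicate on R1 ESCs, a mouse line of pluripotent cells used here as wild type (WT), and on clone 2 of R1 in which CRISPR had been aimed at *Zfp296* (KO2). KO2 is a single clone, obtained by transfecting R1 ESCs with a Cas9 plasmid that carried a guide against the first exon and by puromycin selection. A difference between KO2 and WT therefore cannot be told apart from any other difference between this clone and the WT cells sequenced. Per the methods of the study, ESCs were grown on gelatine with serum, LIF and the inhibitors PD0325901 and CHIR99021, in both groups as far as the sources state. The question was which annexins were higher in KO2 together with *Anxa5* and *Anxa6*.

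Annexins share a core built from a repeated fold that grips the membrane through bound calcium, and differ in the length and sequence of the tail in front of it. Cells use them to organise membranes, in vesicle traffic, in the sealing of torn plasma membrane and as scaffolds for other proteins. *Anxa5* encodes the annexin known as a probe for phosphatidylserine on dying cells, and *Anxa6* encodes the large annexin with a lengthened core. Several others pair through their tails with EF-hand proteins: *Anxa1* with S100A11, *Anxa2* with S100A10, and *Anxa7* and *Anxa11* with sorcin or ALG-2 (the product of *Pdcd6*).

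Of the annexins listed, 3 were higher in KO2 than in WT, *Anxa6*, *Anxa5* and *Anxa1*, each by between 2.05-fold and 2.74-fold. No member was lower at an adjusted p under 0.05. Of all genes tested, 2.6% were higher and 3.04% lower at that threshold in the same edgeR fit. With DESeq2, the method named by the study, only *Anxa6* passed, with *Anxa1* at an adjusted p of 0.0514 and *Anxa5* at 0.0907. *Anxa2* lay higher in both KO2 libraries than in both WT libraries but missed the threshold. *Anxa4*, *Anxa7* and *Anxa11* had fitted differences between -0.13 and 0.03 on the log2 scale. *Anxa3* and *Anxa9* had too few reads to be tested.

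Depth was lower in WT, with 2829914 and 4334499 counts on genes, than in KO2, with 7470907 and 7437294. Levels are given as CPM (counts scaled to a common library size) after TMM normalization, and a count of 3 corresponded to 1.12 and 0.709 CPM in WT and to 0.38 and 0.401 CPM in KO2. *Zfp296* RNA was 11.6 and 7.33 CPM in the libraries labelled WT and 52.8 and 37.7 CPM in those labelled KO2, a log2 difference of 2.31 (SE 0.285, adjusted p = 4.64e-05). RNA of the targeted gene was thus higher where the label says knockout. The study reports that its *Zfp296* knockout clones were checked by mass spectrometry and that the clonal lines were sequenced. A gene count does not show the state of the reading frame, and "KO2" below means the libraries labelled KO2. Genes of the Y chromosome summed to 0 and 0.231 CPM in the WT libraries and to 640 and 699 CPM in the KO2 libraries. This difference between the groups runs alongside every result below, and its part in them was not tested. The labels give R1 ESCs for both groups, and whether the WT libraries represent the population that gave rise to KO2 was not tested. ESC markers were abundant in all libraries, with 8 genes summing to 5669 to 6024 CPM.

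The stretches upstream of *Anxa5* and *Anxa1*, which rose, and of *Anxa2*, whose values come next in order, are shown because they allow the members to be compared in sequence. RefSeq promoter entries (GRCm38.p6, 250 bases before and 50 after the annotated start) matched 7 of the 9 members. None matched *Anxa3* or *Anxa6*, so *Anxa6*, which also rose, is absent from this comparison. The 250 bases before each start are printed 5′ to 3′ on the gene's strand, in the order of chr3:36475888-36476137 (minus strand), chr19:20390672-20390921 (minus strand) and chr9:69453433-69453682 (plus strand). Capitals mark matches, on either strand, to any of 6 motifs. These are the TATA box (TATAAA), the CCAAT box (CCAAT), the GC box (GGGCGG), the telomere repeat (TTAGGG), the octamer (ATGCAAAT) and the AP-1 site (TGANTCA).
Anxa5: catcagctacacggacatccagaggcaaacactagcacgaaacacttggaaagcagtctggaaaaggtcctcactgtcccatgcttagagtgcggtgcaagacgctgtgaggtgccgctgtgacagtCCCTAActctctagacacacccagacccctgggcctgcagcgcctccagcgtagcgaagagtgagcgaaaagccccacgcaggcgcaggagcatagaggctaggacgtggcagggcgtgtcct
Anxa1: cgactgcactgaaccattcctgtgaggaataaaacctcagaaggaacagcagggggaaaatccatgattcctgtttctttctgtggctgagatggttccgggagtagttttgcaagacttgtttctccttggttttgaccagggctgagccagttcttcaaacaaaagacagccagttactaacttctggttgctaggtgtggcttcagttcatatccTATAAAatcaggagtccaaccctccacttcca
Anxa2: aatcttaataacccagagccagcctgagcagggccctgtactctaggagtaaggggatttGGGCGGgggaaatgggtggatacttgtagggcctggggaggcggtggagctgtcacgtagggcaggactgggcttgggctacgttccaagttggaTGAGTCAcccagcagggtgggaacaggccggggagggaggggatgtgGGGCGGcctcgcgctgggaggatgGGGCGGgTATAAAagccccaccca

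Within the whole 300-base windows, *Anxa5* held the letters of the telomere repeat, TTAGGG, at 2 places, one starting 123 bases before the start (marked above) and one starting at base 31 after it. TTAGGG occurred in 10.6% of 32851 promoters and at least 2 times in 0.566% of them. *Anxa1* and *Anxa2* each held TATAAA, starting 32 and 17 bases before their starts, as did 13.6% of all promoters. *Anxa2* also held 3 matches to GGGCGG (in 35.7% of all promoters) and 1 to TGANTCA, the AP-1 site (in 7.81%). No marked matches overlapped. None of the 3 windows held CCAAT or ATGCAAAT, which occurred in 37.4% and 1.74% of all promoters. GC content was 60.3% for *Anxa5*, 47.3% for *Anxa1* and 63.7% for *Anxa2*, against a median of 52.7%. No motif of the 6 was present in both *Anxa5* and *Anxa1*. A match describes letters in the sequence and no binding was measured.

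*Anxa6* (ENSMUSG00000018340, chr11:54792610-54846947 on the minus strand in mm9) had 52.2 and 56.0 CPM in WT and 129 and 118 CPM in KO2. Those levels rest on 140 and 237 counts for WT, and for KO2 on 1018 and 886. The groups did not overlap, and the lower KO2 library was 2.11 times the higher WT library. The mean rose from 54.1 ± 2.71 to 124 ± 7.54 CPM (SD, n = 2 each), a log2 fold change of 1.19 (SE 0.145, 95% interval 0.89 to 1.49, edgeR adjusted p = 4.44e-05). Its unadjusted p ranked 39 among the 12883 genes tested, and its fold change was at percentile 95.4. The call held in each alternative tried, with log2 fold changes between 1.13 and 1.27.

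*Anxa5* (ENSMUSG00000027712, chr3:36347847-36374765, minus strand, mm9) was counted much less often, with 10 and 31 reads in WT and 148 and 100 in KO2. These are 3.73 and 7.33 CPM in WT and 18.8 and 13.4 CPM in KO2. The groups did not overlap, and the lower KO2 library was 1.82 times the higher WT library. The mean rose from 5.53 ± 2.54 to 16.1 ± 3.82 CPM, a log2 fold change of 1.45 (SE 0.403, 95% interval 0.61 to 2.30, adjusted p = 0.0408). This interval contains that of *Anxa6*, and the difference between the folds of these genes was not tested. The adjusted p was 0.19 without WT replicate 1 and 0.205 without KO2 replicate 1, and 0.0907 with DESeq2, each above the threshold.

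*Anxa1* (ENSMUSG00000024659, chr19:20447918-20465434, minus strand, mm9) encodes the annexin named as a mediator of glucocorticoid action on inflammation. It had 17.9 and 17.5 CPM in WT and 29.5 and 43.0 CPM in KO2, from 48, 74, 233 and 322 counts. The WT libraries were nearly equal and the KO2 libraries both lay above them, KO2 replicate 2 the farther. The mean rose from 17.7 ± 0.285 to 36.3 ± 9.54 CPM (log2 fold change 1.04, SE 0.252, 95% interval 0.51 to 1.56, adjusted p = 0.0194). *Anxa1* therefore rose with *Anxa5* and *Anxa6* at the threshold used. The call was lost without WT replicate 1 (adjusted p = 0.0968), WT replicate 2 (0.0911) or KO2 replicate 2 (0.174), and with DESeq2 (0.0514).

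*Anxa2* (ENSMUSG00000032231, chr9:69301427-69339602, plus strand, mm9), whose product joins S100A10 in a complex at the inner face of the plasma membrane, had 6.71 and 15.4 CPM in WT and 23.6 and 19.0 CPM in KO2. Both KO2 libraries were above both WT libraries, but the WT replicates were far apart. The log2 fold change was 0.86 (SE 0.332, 95% interval 0.17 to 1.56), with an adjusted p of 0.153. Without WT replicate 2 the estimate was 1.66 with an adjusted p of 0.0408, and without WT replicate 1 it was 0.47 with an adjusted p of 0.45. Whether *Anxa2* belonged with the annexins that rose was thus decided by the WT library left out. A stretch of 2.63% of its exonic sequence is shared with *Gm16144* on the opposite strand, and the strand setting of the read counting is not given in the sources used here.

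**Figure D1:**
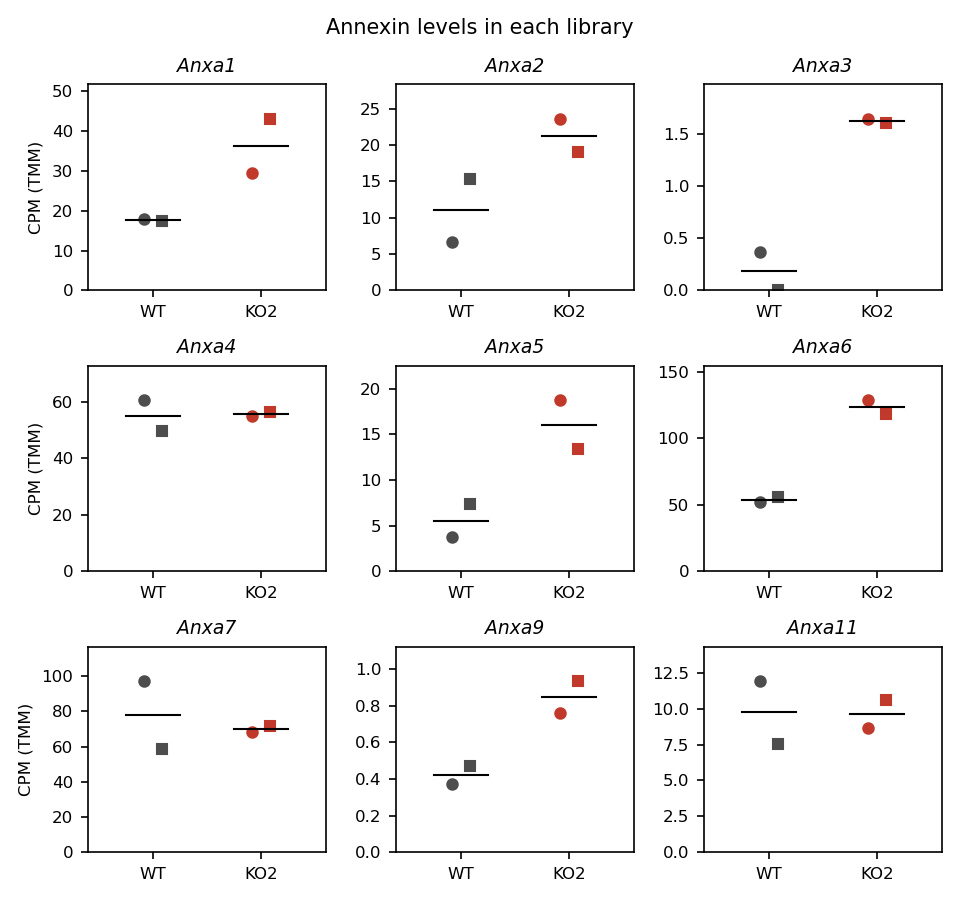
Levels of the 9 annexins in each library, as TMM-normalized CPM on linear axes that start at 0 and differ between panels, with circles for replicate 1, squares for replicate 2 and a bar at the mean of each group (n = 2). *Anxa1*, *Anxa2*, *Anxa3*, *Anxa5*, *Anxa6* and *Anxa9* lie higher in both KO2 libraries than in both WT libraries, *Anxa3* and *Anxa9* from at most 13 counts a library, and *Anxa4*, *Anxa7* and *Anxa11* overlap. The same separation holds for 25.4% of all genes tested.

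*Anxa4*, *Anxa7* and *Anxa11* did not pass the test, and their intervals differ in width. *Anxa4*, which encodes an annexin abundant in secretory epithelia, had 60.7 and 49.6 CPM in WT and 55.2 and 56.3 CPM in KO2 (log2 fold change 0.02, SE 0.168, 95% interval -0.33 to 0.38, adjusted p = 0.957). Both KO2 libraries lay between the WT libraries. *Anxa7*, named synexin for its fusion of chromaffin granules, had 97.3 and 58.8 CPM in WT and 68.2 and 71.9 CPM in KO2 (log2 fold change -0.13, SE 0.186, 95% interval -0.53 to 0.26, adjusted p = 0.763). Again the KO2 libraries lay inside the range of WT. *Anxa11*, whose product is known for RNA granule transport on lysosomes, had 11.9 and 7.56 CPM in WT and 8.62 and 10.6 CPM in KO2 (log2 fold change 0.03, SE 0.388, 95% interval -0.78 to 0.84, adjusted p = 0.98). The *Anxa6* change of 1.19 lies outside each of these 3 intervals. The interval of *Anxa11* reaches 0.84, so that a difference up to that size is not excluded for it.

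*Anxa3* and *Anxa9* failed the filter on low counts. *Anxa3* had 1 and 0 counts in WT and 13 and 12 counts in KO2, which are 0.373, 0, 1.65 and 1.604 CPM. The WT counts lie under the floor of 3 counts per library, and the ratio of the summed counts was 11.3 with a 95% counting interval from 1.84 to 462. *Anxa9* had 1, 2, 6 and 7 counts, a ratio of 1.95 with an interval from 0.536 to 10.7. These intervals cover counting error only and carry no replicate test. An overlap of 3.43% of its exons with *Fam63a* on the opposite strand makes *Anxa9* uncertain as well. 

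The other annexins in the annotation were low. *Anxa8*, a gene known from stratified epithelia, had 4 and 0 counts in WT and 31 and 43 counts in KO2, or 1.49, 0, 3.93 and 5.75 CPM. Both KO2 libraries lay above WT, with a fitted log2 difference of 3.003 (SE 0.944) and an adjusted p of 0.0695, so it was not called. The estimate was 1.68 without WT replicate 2 (adjusted p = 0.358) and 7.98 without WT replicate 1 (adjusted p = 0.0676), where the remaining WT library had 0 counts and the fitted value depends on the prior count. The ratio of summed counts was 8.33 (95% counting interval 3.12 to 31.4). *Anxa10* had at most 3 counts in a library, and *Anxa13* had 0 in every library, so that only levels at or under the floors given above can be stated.

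**Figure D2:**
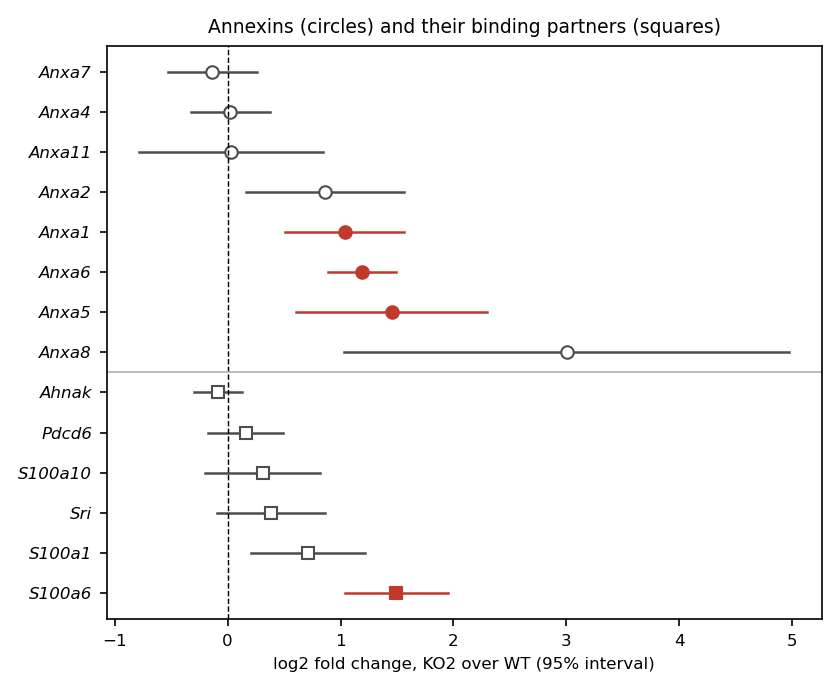
Log2 fold change, KO2 over WT, of each tested annexin, *Anxa8* included (circles), and of the 6 tested partner genes (squares), with lines for the 95% interval of the fit (n = 2 against 2). Filled red symbols had an adjusted p under 0.05 and open symbols did not. *Anxa6* has the shortest interval of the 3 called members, from 0.89 to 1.49, that of *Anxa5* runs from 0.61 to 2.30, and *S100a6* is the called partner.

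Across the members, 7 of 9 passed the filter, 3 were called higher and 0 lower with edgeR. At an unadjusted p under 0.05, 4 were higher and 0 lower, against 9.8% higher and 9.6% lower of all genes tested. DESeq2 called 1 member higher and 0 lower. Among all 12883 genes tested, 2.6% were called higher and 3.04% lower, and both KO2 libraries were above both WT libraries for 25.4%. The median log2 fold change was 0.86 over the 7 members tested and 0.01 over all genes tested. The members were chosen with earlier results of these data known, so these counts and this median are no test of the family. *Anxa5* lay at percentile 97 of all fold changes, *Anxa6* at 95.4, *Anxa1* at 94.2 and *Anxa2* at 92.2. *Anxa11*, *Anxa4* and *Anxa7* lay at 51.8, 51.3 and 34.5.

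**Figure D3:**
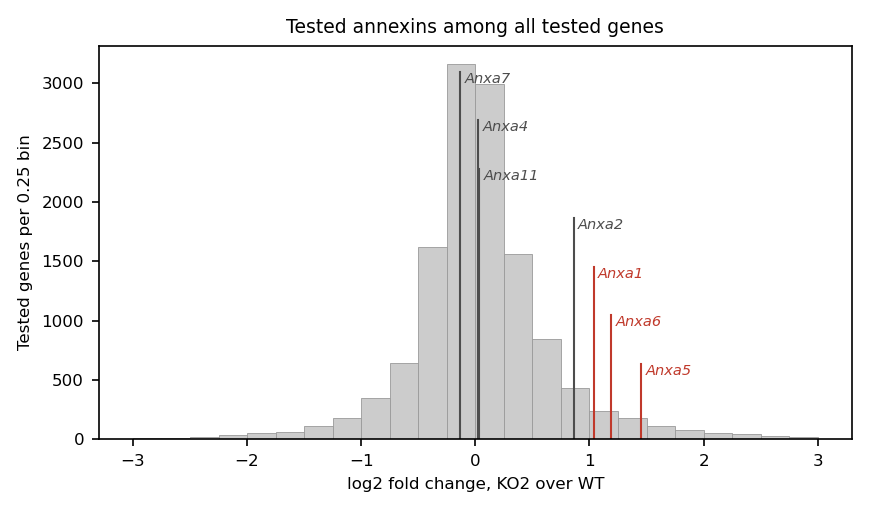
Distribution of the log2 fold changes, KO2 minus WT, of all 12883 genes tested, as a number of genes per bin of 0.25 within the range of the axis, with a vertical line (red where called) at each of the 7 tested annexins, whose height carries no value. The lines of *Anxa1*, *Anxa2*, *Anxa5* and *Anxa6* stand in the right-hand tail and the other 3 stand near the centre.

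The members also differed in how strongly they were expressed. Dividing CPM by the exonic length of the mm9 annotation gives RPKM, on which levels of different genes may be set side by side. In WT the order was *Anxa7* (25.8 ± 8.97 RPKM), *Anxa6* (18.5 ± 0.923), *Anxa4* (11.9 ± 1.69), *Anxa1* (6.78 ± 0.109), *Anxa5* (3.29 ± 1.52), *Anxa2* (2.96 ± 1.64) and *Anxa11* (2.37 ± 0.751), with *Anxa9* and *Anxa3* under 0.3. In WT the libraries of *Anxa5* and *Anxa2*, and of *Anxa2* and *Anxa11*, overlapped. In KO2 *Anxa6* came first with 42.2 ± 2.57 RPKM, ahead of *Anxa7* with 23.1 ± 0.861. Then came *Anxa1* (13.9 ± 3.66) and *Anxa4* (11.995 ± 0.17), whose libraries overlapped, and *Anxa5* (9.58 ± 2.28), *Anxa2* (5.70 ± 0.873) and *Anxa11* (2.33 ± 0.333), with *Anxa3* and *Anxa9* last.

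Summed over the 9 members, the per-length level was 77.2 and 66.5 RPKM in WT and 111 and 110 RPKM in KO2, a ratio of the means of 1.54. Of that sum, *Anxa6* took 23.1% and 28.8% in WT and 39.8% and 36.8% in KO2. *Anxa7* took 41.6% and 29.2% in WT and 20.3% and 21.6% in KO2, although its own level did not pass the test. The share of *Anxa5* was 2.88% and 6.57% in WT and 10.1% and 7.25% in KO2. In this sum *Anxa7* was the leading annexin of both WT libraries and *Anxa6* of both KO2 libraries, by a margin in WT replicate 2 of 29.2% against 28.8%. These shares are of RNA in bulk samples, where fewer cells of a kind and less RNA per cell cannot be told apart.

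**Figure D4:**
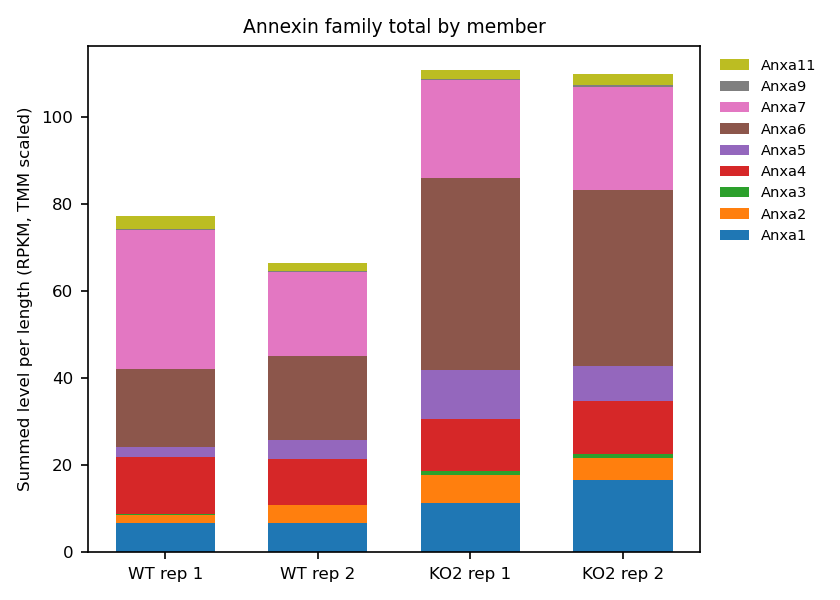
Summed per-length level (RPKM, TMM scaled) of the 9 annexins in each of the 4 libraries, as bars from 0 stacked by member. The bars reach 77.2 and 66.5 RPKM in WT and 111 and 110 RPKM in KO2, and the *Anxa6* segment is the tallest of both KO2 bars while the *Anxa7* segment is the tallest of both WT bars.

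Among 11 genes of annexin partners, 6 were tested, 1 was called higher and 0 lower, with 2 higher and 0 lower at an unadjusted p under 0.05 and 1 higher and 0 lower with DESeq2. The edgeR shares over all genes tested were 2.6% called higher and 3.04% lower. The one called was *S100a6*, encoding calcyclin, an EF-hand protein that binds several annexins. It had 15.7 and 18.7 CPM in WT and 51.7 and 46.1 CPM in KO2 (log2 fold change 1.49, SE 0.218, adjusted p = 0.000293), with no overlap between groups. *S100a10*, the partner of *Anxa2*, had 27.2 and 19.8 CPM in WT and 25.6 and 31.7 CPM in KO2 (0.31, SE 0.243, adjusted p = 0.535). *S100a11*, the partner of *Anxa1*, was too low to test, with 0 and 7 reads for WT and 4 and 31 reads for KO2. *Sri*, which encodes sorcin, and *Pdcd6* differed by 0.39 (SE 0.228) and 0.16 (SE 0.158) on the log2 scale with adjusted p of 0.376 and 0.646. Of the partners named here, only *S100a6* therefore passed the test, and the median over the 6 tested was 0.35.

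Of 20 genes for other calcium-dependent membrane proteins (ferlins, synaptotagmins, copines, calpains and the ESCRT genes *Pdcd6ip* and *Chmp4b*), 14 were tested, 2 were higher, 1 was lower and the median was 0.17. DESeq2 called 1 higher and 1 lower, and 3 were higher and 1 lower at an unadjusted p under 0.05. Over all genes tested, edgeR called 2.6% higher and 3.04% lower. *Dysf*, encoding the ferlin dysferlin of membrane repair, had 7.08 and 7.80 CPM in WT and 26.2 and 20.5 CPM in KO2 (log2 fold change 1.64, SE 0.327, adjusted p = 0.00496). *Myof*, the related ferlin myoferlin, fell from 279 and 294 CPM to 221 and 209 CPM (-0.42, SE 0.112, adjusted p = 0.0346). These 2 ferlins, which share a domain plan, went in opposite directions. *Capn2*, a calpain protease, had 17.5 and 17.7 CPM in WT and 29.4 and 33.4 CPM in KO2 (0.83, SE 0.240, adjusted p = 0.0479). The calls of *Capn2* and *Myof* were both lost without any 1 of the 4 libraries, with adjusted p from 0.0643 to 0.177 and from 0.0793 to 0.145. The call of *Dysf* held without each.

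Genes of plasminogen activation, which *Anxa2* with S100A10 is known to localise at the cell surface, counted 7, of which 5 were tested, 1 was called higher and 1 lower by edgeR, and 0 higher and 1 lower by DESeq2. Of all genes tested, 2.6% were called higher and 3.04% lower by edgeR. The gene of this list called higher was *Plaur*. *Plaur*, the urokinase receptor, had 3.73 and 1.65 CPM in WT and 9.003 and 11.9 CPM in KO2 (log2 fold change 2.06, SE 0.537, adjusted p = 0.0294). Both KO2 libraries lay above both WT libraries. The call of *Plaur* was lost with DESeq2 (adjusted p = 0.073) and without WT replicate 1 (0.058), WT replicate 2 (0.191) or KO2 replicate 2 (0.0877). Of 7 caveola and raft genes, 3 were tested and 0 were called by edgeR or DESeq2, with 0 at an unadjusted p under 0.05.

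**Figure D5:**
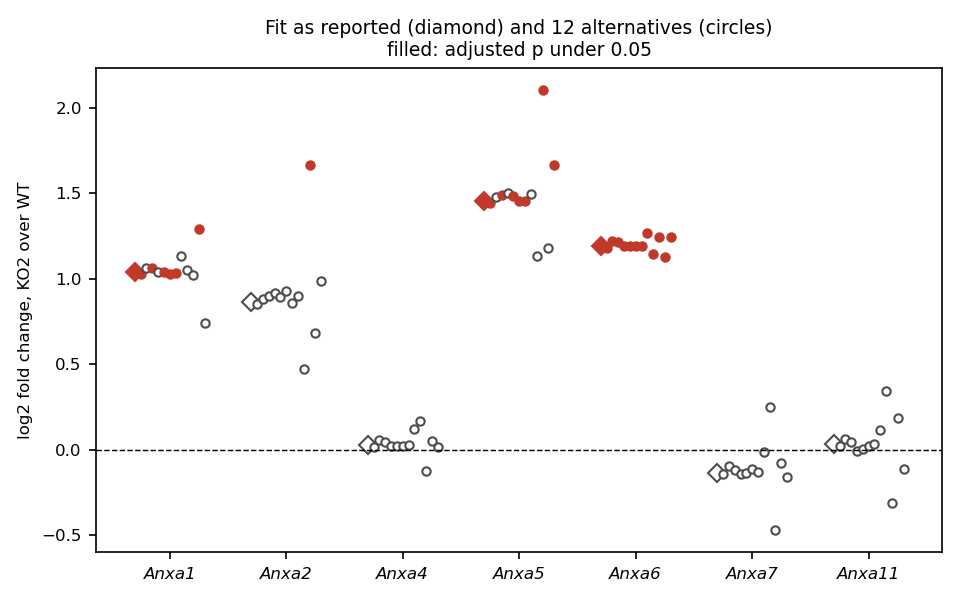
Log2 fold change of the 7 tested annexins, KO2 over WT, in the fit as reported (diamonds) and under 12 alternatives (circles). Filled points passed an adjusted p under 0.05. *Anxa6* stays filled throughout, between 1.13 and 1.27, while *Anxa1* runs from 0.74 to 1.29 and *Anxa5* from 1.13 to 2.10 with part of the points open.

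Outside the annexins, the genes whose profile over the 4 libraries was nearest to *Anxa6* were *Lrp1* (a distance of 0.0756), *Gsto1* (0.177) and *Fbp2* (0.189). Likeness was measured as the Euclidean distance between log2 CPM values centred over the 4 libraries, among 3216 tested genes with a symbol within 2-fold of its mean level. *Lrp1*, encoding an endocytic receptor of the LDL receptor family, had 98.8 and 102 CPM in WT and 253 and 224 CPM in KO2. For *Anxa5*, among 3427 genes, the nearest were *Tmc6* (0.215), *Atox1* (0.240), which encodes a copper chaperone, and *Birc7* (0.246), an inhibitor of apoptosis. *Atox1* had 5.22 and 8.27 CPM in WT and 24.6 and 15.4 CPM in KO2. It shared the order of libraries with *Anxa5*, which its selection by likeness over these libraries favours.

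The nearest tested genes on either side of *Anxa6* and *Anxa5* did not pass the test. *Tnip1*, 16190 bp from *Anxa6*, differed by 0.49 (SE 0.184, adjusted p = 0.136) and *Gm2a*, 64669 bp away, by 0.46 (SE 0.189, adjusted p = 0.18). For each of them both KO2 libraries lay above both WT libraries, as for 25.4% of all genes tested. Their unadjusted edgeR p were 0.015 and 0.0248, and 9.8% of all genes tested were higher at an unadjusted p under 0.05. *Exosc9*, 76762 bp from *Anxa5*, differed by -0.18 (SE 0.178, adjusted p = 0.64) and *D3Ertd254e* on its other side by 0.22 (SE 0.187, adjusted p = 0.58). Beside *Anxa1*, *Trpm6*, a magnesium channel gene, was higher in KO2 (1.66, SE 0.319, adjusted p = 0.00363) at a distance of 1480900 bp, and *Zfand5* was not called (-0.17, SE 0.126, adjusted p = 0.505).

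Markers of other cell types were examined in the same fit. Fibroblast markers (8 genes) summed to 3.35 and 13.2 CPM in WT and 7.35 and 9.09 CPM in KO2, with *Dcn*, *Lum* and *Postn* at 0 in every library. Primitive endoderm markers (8 genes) summed to 10.4 and 3.07 CPM in WT and 8.24 and 8.56 CPM in KO2, and trophoblast markers (5 genes) to 4.47 and 7.80 against 4.57 and 9.76 CPM. In each of these lists the sums of the groups overlapped, but single genes with few counts did not all follow the sums. *Gata6*, *Amn*, *Cdx2*, *Elf5* and *Hand1* had more CPM in both KO2 libraries than in both WT libraries, from at most 9 counts a library. *Pdgfra*, *Gata3* and *Thy1* had less. Of these genes only *Pdgfra* had enough reads to be tested, and it was not called. Among all genes tested, both KO2 libraries lay above both WT libraries for 25.4%. Neural progenitor markers (4 genes) summed to 97.6 and 86.7 CPM in WT and 115 and 121 CPM in KO2, nearly all from *Nes* (log2 fold change 0.35, adjusted p = 0.158), with *Olig2* at 0 in every library. *Pax6* had 0 and 1 counts in WT and 13 and 6 counts in KO2, too few to be tested. The part of the markers of these lists in the annexin differences was not tested. Of the 6 tested genes in these 4 lists, 0 were called by edgeR or DESeq2, and 1, *Nes*, had an unadjusted p under 0.05. Of the 8 ESC markers, 1 was lower, *Sox2*, by 0.79 on the log2 scale (adjusted p = 7.82e-05), and 0 were called higher by edgeR. DESeq2 called *Dppa5a* higher (log2 fold change 0.35, adjusted p = 0.0275), which in edgeR had an unadjusted p of 0.00455 and an adjusted p of 0.0673.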

How the data were processed

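The authors mapped strand-specific, rRNA-depleted RNA-seq reads to mm9 with HISAT2, counted them with HTSeq and deposited raw counts per gene for each of 4 libraries. Versions, annotation and the strand setting are not given in the sources used here. Reads without a unique position, 35.6% to 40.4% of the total, were not counted for any gene.

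Counts were normalized with TMM, filtered with filterByExpr (minimum count 10, minimum total 15) and tested with glmQLFit and glmQLFTest (two-sided) in edgeR 4.0.16 (R 4.3.3, limma 3.58.1). P-values were adjusted by the Benjamini-Hochberg method over 12883 genes with a threshold of 0.05. SE is the log2 fold change divided by the root of F. The p-values rest on the spread between the 2 replicates of a group, estimated with information shared across the genes tested. Per the methods of the study, RNA was isolated in duplicate from cells. KO2 is a single clone, so the p-values do not cover variation between clones. Replicates differed beyond sampling noise (chi-square per gene 6.36 in WT and 24.1 in KO2). Ratios of counts used exact 95% intervals. Symbols and mm9 coordinates came from the NCBIM37 annotation.

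Members, lists and motifs were chosen with earlier results of these data known. Named were all annexins, *Zfp296*, called genes of each list (with the exception given below), 5 partners, markers, neighbours, and the 3 nearest profiles to *Anxa5* and *Anxa6*, where a symbol was required as an addition. Alternatives were RLE, no filter, a filter of 10 counts in every library, DESeq2 1.42.0, the older quasi-likelihood method, a replicate block, removal of Y-linked and mitochondrial genes, ERCC scaling, and leaving out each library. The fit was tested on simulated data. A gene of the lists is not reported here by name but is included in the counts of calls.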

Additional observations from a re-analysis of the deposited data

How the results depend on the processing

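*Anxa6* kept its call under 12 of 12 alternatives (adjusted p at most 0.0363). Without the filter on low counts, 29 genes were called higher and 32 lower against 335 and 391, with 25397 genes tested, and 1 annexin (*Anxa6*), 0 higher and 0 lower of the 4 lists of partners and related genes (4 and 2 as reported). There *Anxa1* was 1.07 (adjusted p = 0.236) and *Anxa5* 1.48 (0.264). With ERCC scaling 90 were higher and 73 lower, 1 annexin and 1 lower in the lists, with *Anxa1* at 1.13 (0.139) and *Anxa5* at 1.496 (0.0995). With DESeq2, 189 were higher, with 1 annexin and 2 higher in the lists, *Anxa1* at 1.04 (0.0514), *Anxa5* at 1.502 (0.0907) and *Anxa11* at -0.0072 with its sign turned. The cause was not tested.

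Leaving out 1 library gave 121 to 340 higher and 149 to 351 lower calls, 1 to 3 annexins, and 2 to 3 higher and 0 to 1 lower genes of the lists. Log2 fold changes then ranged from 0.74 to 1.29 for *Anxa1*, 1.13 to 2.10 for *Anxa5*, 0.47 to 1.66 for *Anxa2*, -0.12 to 0.17 for *Anxa4*, -0.47 to 0.25 for *Anxa7* and -0.31 to 0.34 for *Anxa11*. Where 1 library of a group remained, it was assumed to vary like the other group.

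With a replicate block, 470 genes were higher and 476 lower, 3 annexins among them, and *Anxa8* was called (3.002, adjusted p = 0.0178). The methods of the study name no pairing of replicates. The correlation of same-numbered deviations was -0.0066, which rests on a single replicate difference in each group and cannot exclude a pairing. The shallow WT libraries limit members with few reads, *Anxa3*, *Anxa8* and *Anxa9* above all.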
